A study of Mus musculus with 20 samples.

Results

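Toll-like receptors, the adaptors and kinases beneath them, NF-kB, the interferon regulatory factors and the interferon to STAT pathway were followed in the ileal mucosa of mice by real-time PCR. Assays were chosen by gene symbol: those beginning with Tlr, Irak, Nfkb, Rel, Irf, Stat, Jak, Ifna, Ifnb, Ifne, Ifnk or Ifngr, together with Myd88, Tollip, Tirap and Socs1. The choice gave 45 of 648 assays and 42 of 584 genes, and the interferon alpha receptor genes Ifnar1 and Ifnar2 came in through their first letters. No assay matched Traf, Ikbk, Chuk, Ticam1, Ticam2, Tyk2 or Socs3. A total of 20 samples fell into 4 groups of 5. Healthy controls received phosphate-buffered saline (PBS) by the intrarectal and by the oral route. In the other 3 groups the intrarectal agent was DNBS (dinitrobenzene sulfonic acid, a hapten used to provoke intestinal inflammation in mice), and the oral treatment was PBS in the DNBS group, a treatment abbreviated CEC in the CEC group, and Nissle, the name of a probiotic strain of Escherichia coli, in the Nissle group. Strain, genotype, age, dose and the time between treatment and sampling were not given in the sources used here, and neither was the meaning of CEC. The DNBS group shares its intrarectal agent with both orally treated groups, and no group received CEC or Nissle without DNBS. For Nissle samples 3, 4 and 5 a further label names the healthy controls, against their title and both treatment labels. The series text speaks of RNA pooled from mice and does not say whether a sample is 1 animal, so p-values here measure the spread between these samples only, which may be technical.

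Toll-like receptors are membrane proteins that recognise molecules of microbes, such as lipopolysaccharide (Tlr4), flagellin (Tlr5), lipopeptides (Tlr2 with Tlr1 or Tlr6) and nucleic acids (Tlr3, Tlr7, Tlr9). Through adaptors and the Irak kinases they activate NF-kB and interferon regulatory factors, which enter the nucleus and switch on cytokine and interferon genes. Secreted type I interferons bind the Ifnar1 and Ifnar2 receptor and interferon gamma binds Ifngr1 and Ifngr2, both receptors signal through Jak kinases to Stat factors, and Socs1 dampens that signal. In the gut these pathways lie between the microbes of the lumen and the epithelial and immune cells of the mucosa.

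Interferon genes and Socs1 are known to be switched on through sites in their promoters, and the promoters shown are those of these genes that held the interferon regulatory factor or the NF-kB motif in the search described here. Those of Ifne and Ifnk held neither and are not shown. Promoter sequences were from RefSeq (GRCm38.p6) and were matched for 38 of the 42 genes. The 250 bases before each start were searched on both strands for 3 motifs. That of the interferon regulatory factors was GAAA, any 2 bases and GAAA again, that of Stat factors TTCNNNGAA with any base at N, and that of NF-kB GGG, any 3 bases and TTCC. Capitals mark the interferon regulatory factor motif in the first 5 sequences and the NF-kB motif in the last, and each sequence reads 5′ to 3′ on the strand of its gene. In Socs1 a pair of matches overlap.

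Ifna12 (chr4:88603433-88603502, minus strand): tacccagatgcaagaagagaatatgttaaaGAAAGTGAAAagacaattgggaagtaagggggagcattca
Ifna4 (chr4:88841578-88841737, plus strand): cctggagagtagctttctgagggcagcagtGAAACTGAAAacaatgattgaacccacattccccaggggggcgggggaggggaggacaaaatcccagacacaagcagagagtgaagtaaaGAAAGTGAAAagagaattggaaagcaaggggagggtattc
Ifna2 (chr4:88683904-88684029, minus strand): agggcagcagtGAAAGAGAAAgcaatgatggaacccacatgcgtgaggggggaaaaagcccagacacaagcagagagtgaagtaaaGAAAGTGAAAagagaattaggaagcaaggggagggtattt
Ifna14 (chr4:88571924-88572048, minus strand): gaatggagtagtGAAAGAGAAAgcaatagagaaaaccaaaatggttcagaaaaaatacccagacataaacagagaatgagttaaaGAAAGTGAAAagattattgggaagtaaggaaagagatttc
Socs1 (chr16:10785574-10785649, minus strand): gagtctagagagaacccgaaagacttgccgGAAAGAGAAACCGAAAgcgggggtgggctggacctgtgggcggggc
Ifnb1 (chr4:88522871-88522940, minus strand): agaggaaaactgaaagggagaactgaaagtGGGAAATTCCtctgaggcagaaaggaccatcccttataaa

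The interferon regulatory factor motif was present in the promoters of 9 of 38 genes, and in 9 of their 45 promoters (Ifna2, Ifna4, Ifna12, Ifna14, Myd88, Socs1, Stat4, Tlr6 and Tlr11), beside 2.98% of 32851 mouse promoters. The NF-kB motif was present for 5 genes (Ifnb1, Ifngr2, Tlr2, Tlr3 and Tlr6; 4.65% of all promoters), and the Stat motif for 5 (Ifna14, Ifnar2, Ifne, Myd88 and Tlr1; 7.02%). The interferon alpha genes are similar copies on chromosome 4, so these promoters are not independent of each other. A match describes letters in this window and is not evidence of binding. The lack of a match, as for Ifnb1 with the interferon regulatory factor motif, is not evidence that a site is absent.

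Each value began as a cycle threshold (Ct), the cycle at which the fluorescence of the product crosses a set line, so that more template gives a lower Ct. The relative level used here is the sample's mean Ct over the 544 assays with a value in all samples minus the assay's Ct, a log2 value if every cycle doubles the product, which was assumed. Levels of different assays are not compared, since assays differ in efficiency. Each of the 45 assays gave a value in all 20 samples, between 18.8 and 28.8 cycles. Over the whole panel 570 to 594 assays gave a value in a sample. Of the 45 assays, 13 have IDs ending in s1, which marks primers and probe inside a single exon, where genomic DNA can also be amplified; whether it was amplified here was not tested. These 13 are all 7 interferon ligands, Tlr5, Tlr6, Tlr11, Tlr12, the assay shared by Tlr1 and Tlr6, and Socs1. Whether an interferon alpha assay also amplifies another copy was not tested.

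Samples healthy 5, DNBS 5 and DNBS 1 stood apart before any comparison. When the table was divided into its 12 successive sections of 54 assays, they showed sections shifted against each other by 3.07, 2.63 and 1.90 cycles, while the other 17 samples stayed between 0.28 and 1.16 cycles. Section 1 holds Tollip, Tlr9, Nfkb1, Irak3, Ifngr1 and an assay of Tlr1, and in it the cycles ran 2.23 later in healthy 5, 1.66 in DNBS 1 and 1.31 in DNBS 5. Section 12 holds Irak4, Irf7, Ifna2, Ifna14 and Tlr6, and it ran 1.32 cycles early in DNBS 5 and 0.84 early in healthy 5. The sources used here do not say what these sections are. Values after each section was centred within each sample, and values without these 3 samples, are given where they differ from the main value by over 1.5 times. For single assays this covers 34 differences, those of smallest p or without overlap in a comparison. Other differences are from the main fit only, among them those of Tollip, Nfkb1, Irak3, Ifngr1, Irak4, Irf7, Ifna2, Ifna14, Tlr6 and both assays of Tlr1 alone.

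Markers of the tissue and of other cells were set beside the members. The 3 assays of small intestinal epithelial genes (2 of Apoa1 and 1 of Ccl25) reached threshold between 14.2 and 19.7 cycles in all samples. Their summed level had a median of 9.47 in healthy controls (7.37 to 9.65), 8.33 with DNBS (7.22 to 9.23), 9.39 with CEC (9.22 to 10.0) and 9.11 with Nissle (7.47 to 9.65), on the log2 scale. For the 9 assays of neutrophil genes the median was 2.25 (2.06 to 2.60) in healthy controls, 3.98 (2.37 to 6.03) with DNBS, 2.39 (1.97 to 5.14) with CEC and 2.78 (2.15 to 7.55) with Nissle. A summed level is carried mostly by the assays with the lowest Ct. With DNBS against healthy the log2 differences were 4.42 and 3.83 for S100a8, 3.96 for S100a9, 2.45 for Il8rb and 1.83 for Ltf. For Ncf1, Camp, Fpr1 and Itgam they were 0.19, 0.14, 0.09 and -0.18. Against DNBS, 8 of the 9 neutrophil assays were lower with CEC and 6 with Nissle. The others were higher, Itgam with CEC at 1.01, and Camp, Itgam and Fpr1 with Nissle at 1.46, 0.32 and 0.16. The 4 macrophage and dendritic cell assays lay between 0.61 and 0.71 in healthy controls and between 0.95 and 1.66 with DNBS, with medians of 0.67, 1.33, 1.20 and 1.25 in healthy controls, DNBS, CEC and Nissle. In the same order the medians were -0.28, -0.84, -0.34 and -0.25 for 2 T cell assays, -0.39, 0.08, -0.27 and -0.33 for 2 B cell assays, and 1.63, 1.05, 1.29 and 1.11 for 4 eosinophil and mast cell assays. With DNBS against healthy the eosinophil and mast cell assays had -1.7 (Ccr3_Mm00515543_s1, a single-exon assay), -0.26 (Ccr3_Mm01216172_m1), -0.71 (Kit) and 0.42 (Prg2). The 2 B cell assays differed in sign with DNBS against healthy, Cr2 at -0.62 and Cd40 at 0.11. With Nissle against healthy they were at -1.91 and 0.08. The macrophage and dendritic cell assays had 1.06 (Cd163), 0.999 (Cd14), 0.02 (Cd86) and -0.33 (Cx3cr1) with DNBS against healthy. In the same order they had -0.27, -0.47, 1.25 and 1.28 with CEC against DNBS, and -0.08, -0.15, 1.10 and 0.56 with Nissle against DNBS. The part of these cells in the results below was not tested, and in whole mucosa fewer cells of a type and less RNA per cell cannot be told apart.

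The question of what intrarectal DNBS did was addressed with the DNBS group against the healthy controls. The 7 interferon ligand assays (Ifna2, Ifna4, Ifna12, Ifna14, Ifnb1, Ifne and Ifnk) were lower on average with DNBS, by a median log2 difference of -1.17, and Tlr5, the flagellin receptor, was lower in all 5 DNBS samples than in any healthy sample. These are all single-exon assays. Of the 40 single-exon assays outside the 45, 35 were also lower (median -0.64). Socs1, the inhibitor of Jak kinases, and Tirap, the adaptor that brings Myd88 to Tlr2 and Tlr4, were the 2 of the 45 assays higher than in the healthy controls at an unadjusted p under 0.05. None of the 45 assays passed the threshold: 0 had an adjusted p under 0.05 in limma, where 0.176% of the 569 assays tested on the panel did, and the smallest adjusted p among the 45 was 0.122. An unadjusted p under 0.05 was reached by 7 of 45 (2 higher, 5 lower; 15.6%), close to the 14.6% of all assays tested. This count was 14 without healthy 5, 4 without DNBS 4 or without healthy 4, 20 with array weights and 3 with the sample number as a block. With single-exon assays left out it was 1 of the 32 other members, of which 2 were among the 7. Shares of all tested assays were not computed for these alternative counts. The groups did not overlap for 1 of 45 (Tlr5; 2.22%), against 4.75% of all tested. The median difference was -0.24 over the 45 assays and -0.07 over all tested, with 34 of 45 lower in the DNBS group. Without normalization 24 of 45 were lower, and with the panel's reference genes as the scale 38 were. With array weights, a limma option that gives noisier samples less weight, 6 of the 45 were called in this comparison (Ifnb1, Ifne and Ifna12 lower, Socs1, Tirap and Ifnar2 higher). That is 13.3% of the 45, no larger a share than the 17.8% of all tested that were called in the same fit.

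What oral CEC and Nissle did on top of DNBS was addressed by setting each against the DNBS group. Against that group the interferon ligands had positive differences with CEC in 7 of 7 assays (median log2 difference 0.87) and with Nissle in 6 of 7 (median 0.38). Of the 40 single-exon assays outside the 45, 34 had positive differences with CEC (median 0.66) and 31 with Nissle (median 0.34). Socs1, Tirap and the Irf3 assay Irf3_Mm00516779_m1 had negative differences with both treatments, and Tlr9, a receptor for bacterial DNA, positive ones. Again 0 of 45 assays were called in either comparison with limma, as were 0.0% of all tested, and the smallest adjusted p was 0.386 for CEC and 0.851 for Nissle; with array weights 2 were called with CEC, Ifne and Socs1 (4.44% of the 45, below the 8.26% of all tested in that fit), and 0 with Nissle (0.0% of all tested). At an unadjusted p under 0.05 there were 10 of 45 with CEC (5 higher, 5 lower; 22.2% beside 10.7% of all tested) and 3 of 45 with Nissle (1 higher, 2 lower; 6.67% beside 4.22%). The count of 10 moved with single samples and settings. It was 3 without CEC 1, 4 without DNBS 3 or DNBS 4, 5 without CEC 7 or DNBS 5, and 6 without CEC 8. It was 4 without normalization, 5 with sections centred and 5 without the Nissle samples of contradictory label. With single-exon assays left out it was 2 of the 32 other members, of which 5 were among the 10. Shares of all tested assays were not computed for these alternative counts. Tirap alone did not overlap, in either comparison (2.22% of the 45 each, beside 3.16% and 1.05% of all tested). With CEC, 25 of 45 were higher than in the DNBS group (19 without normalization, 32 when scaled to the sample median), and with Nissle 20 were higher (29 without normalization, 29 with the reference genes). Both comparisons use the same 5 DNBS samples, which are also those set against the healthy controls, so a difference that rests on these samples appears in all 3 with its sign turned for the oral treatments.

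**Figure D1:**
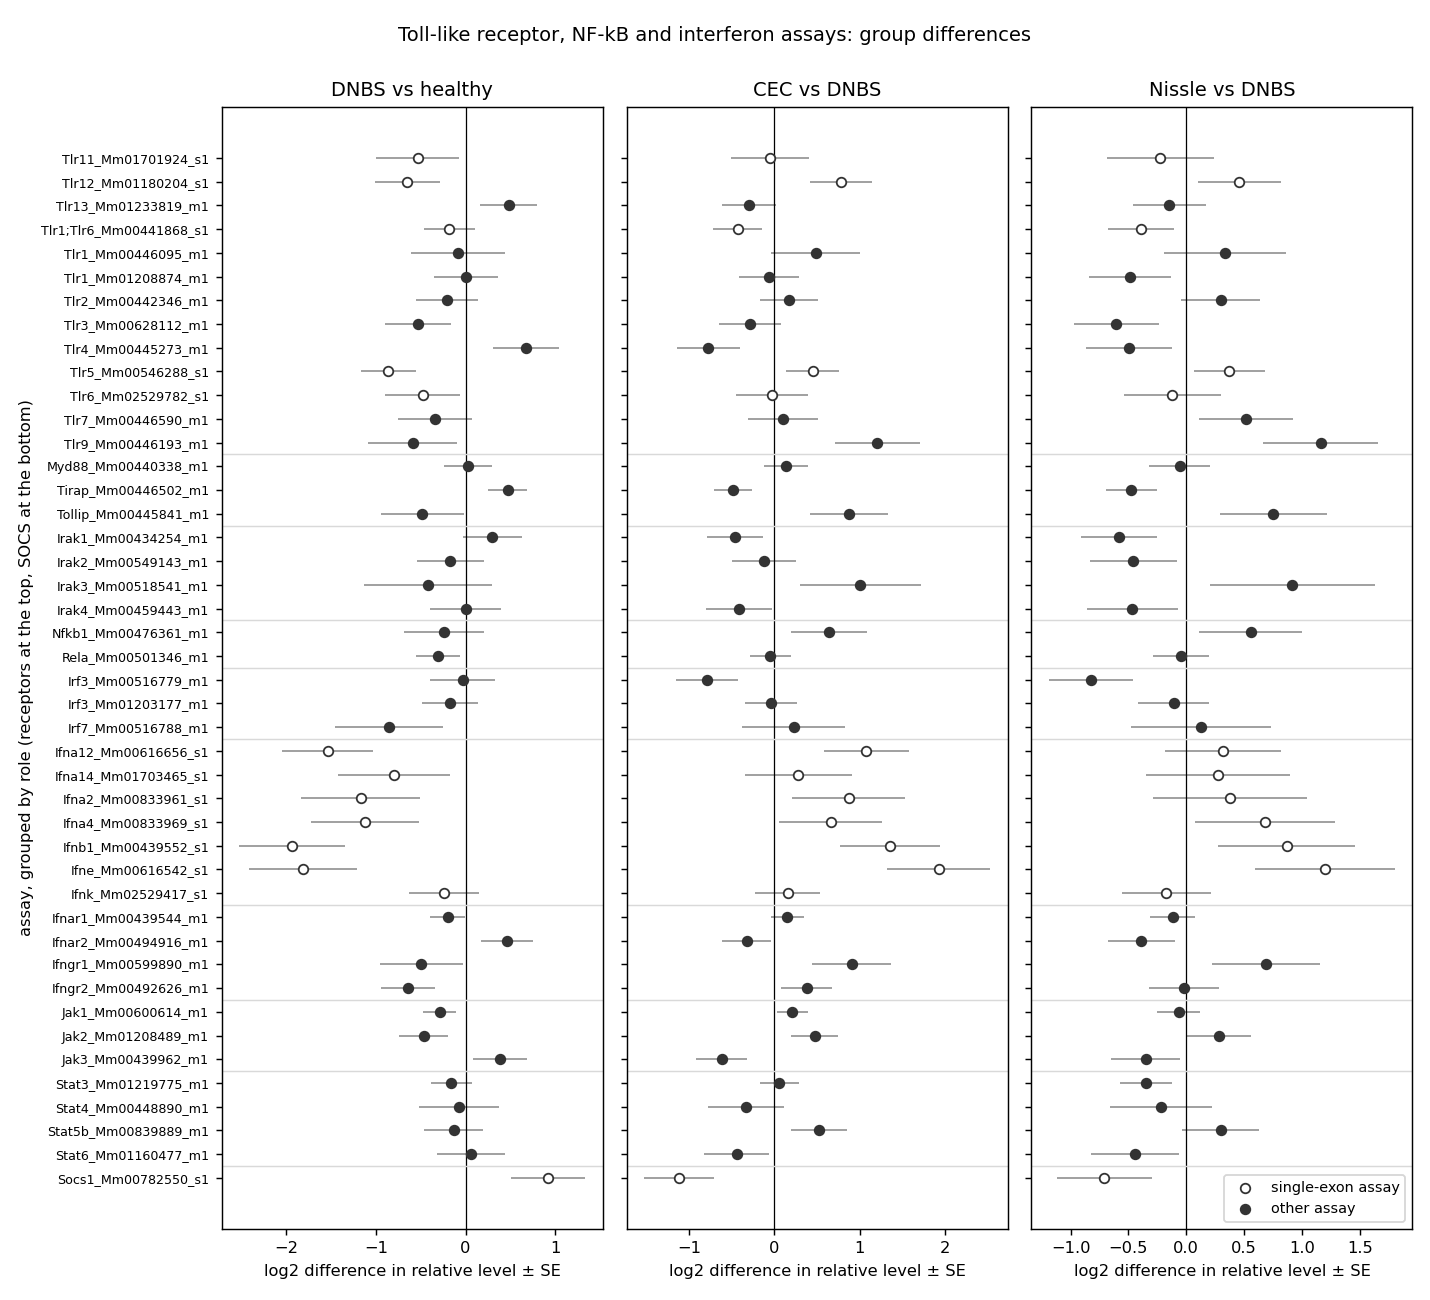
Log2 difference in relative level (horizontal axes, bars ± SE) for 44 of the 45 assays in 3 comparisons, grouped by role from receptors at the top to Socs1 at the bottom; open circles are single-exon assays. The interferon ligands lie left of 0 in the DNBS group against healthy controls (7 of 7) and right of 0 with CEC against DNBS (7 of 7), and no assay shown passed an adjusted p of 0.05. Of the 40 single-exon assays outside the 45, which are not shown, 35 were lower in the first of these comparisons and 34 higher in the second.

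Both oral groups were also set against the healthy controls, the same 5 samples as for DNBS. Of the 45 assays, Tlr3 had the smallest p with Nissle and the Irf3 assay Irf3_Mm00516779_m1 with CEC, both on the lower side. In these comparisons neither oral group had a called member (0 of 45 each with limma, also with array weights; 0.176% of all tested with CEC and 0.176% with Nissle, in both fits). The unadjusted counts were 3 of 45 with CEC (all lower; 6.67% beside 3.87% of all tested) and 5 of 45 with Nissle (all lower; 11.1% beside 9.49%). With CEC no member lay outside the healthy range in all samples (0.879% of all tested did), and with Nissle 2 did, Tlr3 and Ifngr2 (4.44% beside 2.99%). The median difference was -0.20 with CEC and -0.31 with Nissle, against -0.08 and -0.10 over all tested. Lower than in the healthy controls were 32 of 45 with CEC and 31 of 45 with Nissle, the latter 18 without normalization and 36 with sections centred. In the direct comparison of CEC with Nissle, 0 of 45 had an adjusted p under 0.05 in limma (0.0% of all tested), 0 an unadjusted p under 0.05 (1.41% of all tested; up to 6 under other settings), and 0 groups without overlap (0.351%). There 33 of 45 were higher with CEC, but 6 without normalization and 18 with the reference genes.

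Among the receptors, Tlr5 was the one whose DNBS samples lay outside the healthy range. Levels here and in what follows are given in the order healthy 1b, 3, 4, 5 and 6, DNBS 1 to 5, CEC 1, 3, 5, 7 and 8, and Nissle 1 to 5. For Tlr5 (Tlr5_Mm00546288_s1) they were -0.47, -1.17, -1.06, 0.01 and -1.01 in healthy controls, -1.56, -1.42, -1.42, -1.86 and -1.74 with DNBS, -1.03, -1.95, -1.26, -0.45 and -1.07 with CEC and -1.89, -1.16, -0.92, -1.16 and -1.01 with Nissle. The highest DNBS samples stood at -1.42 and the lowest healthy one at -1.17, while CEC and Nissle samples overlapped both groups. The difference of DNBS from healthy was -0.86 (SE 0.31) with an adjusted p of 0.158 in limma, which is 1.81-fold lower, and no sample left out in turn moved it outside -0.97 to -0.67. Against DNBS the differences were 0.45 (SE 0.31) with CEC and 0.37 (SE 0.31) with Nissle. Because this is a single-exon assay, its difference stands beside a median of -0.64 for the 40 single-exon assays outside the 45 in the same comparison.

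Tlr3, which senses double-stranded RNA, had levels of 1.72, 1.61, 1.65, 3.05 and 1.84 in healthy controls, 1.73, 1.01, 1.33, 1.31 and 1.82 with DNBS, 0.17, 0.38, 1.92, 1.74 and 1.55 with CEC and -0.08, 0.90, 0.86, 1.04 and 1.45 with Nissle. The 5 Nissle samples lay below all healthy samples, CEC samples 1 and 3 were low and the other 3 within or near the healthy range, and DNBS samples overlapped with healthy ones. The differences from healthy were -1.14 (SE 0.37) with Nissle (adjusted p 0.488, limma), -0.82 (SE 0.37) with CEC (adjusted p 0.803) and -0.53 (SE 0.37) with DNBS. Healthy 5 is the highest sample by far, and leaving out each sample in turn gave -1.29 to -0.87 for Nissle and -1.02 to -0.55 for CEC. With array weights the CEC difference was -0.22, and without normalization the Nissle difference was -0.70.

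Tlr9 had -3.25, -2.0, -2.51, -4.48 and -2.73 in healthy controls, -4.07, -2.38, -4.05, -2.67 and -4.76 with DNBS, -1.63, -2.09, -2.73, -3.24 and -2.19 with CEC and -2.71, -1.87, -2.39, -2.51 and -2.62 with Nissle. DNBS 1, 3 and 5 and healthy 5 were the lowest of the 20 samples, and the groups overlapped in every comparison. Against DNBS the difference was 1.21 (SE 0.50) with CEC (adjusted p 0.416, limma) and 1.16 (SE 0.50) with Nissle (adjusted p 0.851). Once each section was centred these became 0.48 and 0.39, and without healthy 5, DNBS 1 and DNBS 5 0.66 and 0.61. Tlr9 lies in section 1, whose cycles ran late in healthy 5, DNBS 1 and DNBS 5.

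The lipopolysaccharide receptor Tlr4 had a difference of 0.68 (SE 0.37) with DNBS against healthy (adjusted p 0.408, limma) and -0.78 (SE 0.37) with CEC against DNBS (adjusted p 0.455), the latter -0.35 after sections were centred. Tlr13, a sensor of bacterial ribosomal RNA, had 0.48 (SE 0.32) with DNBS and Tlr2 -0.21 (SE 0.34). Tlr7, which senses single-stranded RNA, had -0.34 (SE 0.41). Among the other single-exon receptor assays, Tlr6 had -0.48 (SE 0.42) with DNBS, and for Tlr11 and Tlr12, which recognise profilin of protozoa, the differences were -0.53 (SE 0.46) and -0.65 (SE 0.36). For Tlr12 CEC against DNBS gave 0.78 (SE 0.36; adjusted p 0.455, limma), 0.41 with sections centred. Of the 13 receptor assays, 10 were lower with DNBS than in healthy controls (median log2 difference -0.34), 9 with CEC (median -0.10) and 7 with Nissle (median -0.19).

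Tlr1, which pairs with Tlr2, was measured by 2 assays of its own and by 1 that carries the names of Tlr1 and Tlr6. The assay Tlr1_Mm00446095_m1 gave -0.09 (SE 0.53) with DNBS, 0.40 (SE 0.53) with CEC and 0.25 (SE 0.53) with Nissle, each against healthy. The assay Tlr1_Mm01208874_m1 gave 0.0039 (SE 0.35), -0.06 (SE 0.35) and -0.48 (SE 0.35), so that the sign differed between the assays in all 3. The shared assay, Tlr1;Tlr6_Mm00441868_s1, gave -0.18 (SE 0.29), -0.62 (SE 0.29) and -0.57 (SE 0.29). Its levels were 2.63, 1.75, 2.16, 3.33 and 2.46 in healthy controls and 1.24, 1.69, 2.22, 2.09 and 2.02 with CEC, which overlapped, and its difference for CEC (adjusted p 0.803, limma) was -0.40 without healthy 5 and -0.34 with sections centred. In raw cycles the first Tlr1 assay minus the second gave 0.70 in healthy 5, 0.61 in DNBS 1, 0.40 in DNBS 5 and 0.77 in CEC 7, and between -2.38 and -0.12 in the other 16 samples. The sections that hold these assays (1 and 5) were shifted against each other by 2.16, 1.81, 1.27 and 0.47 cycles in those 4 samples.

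**Figure D2:**
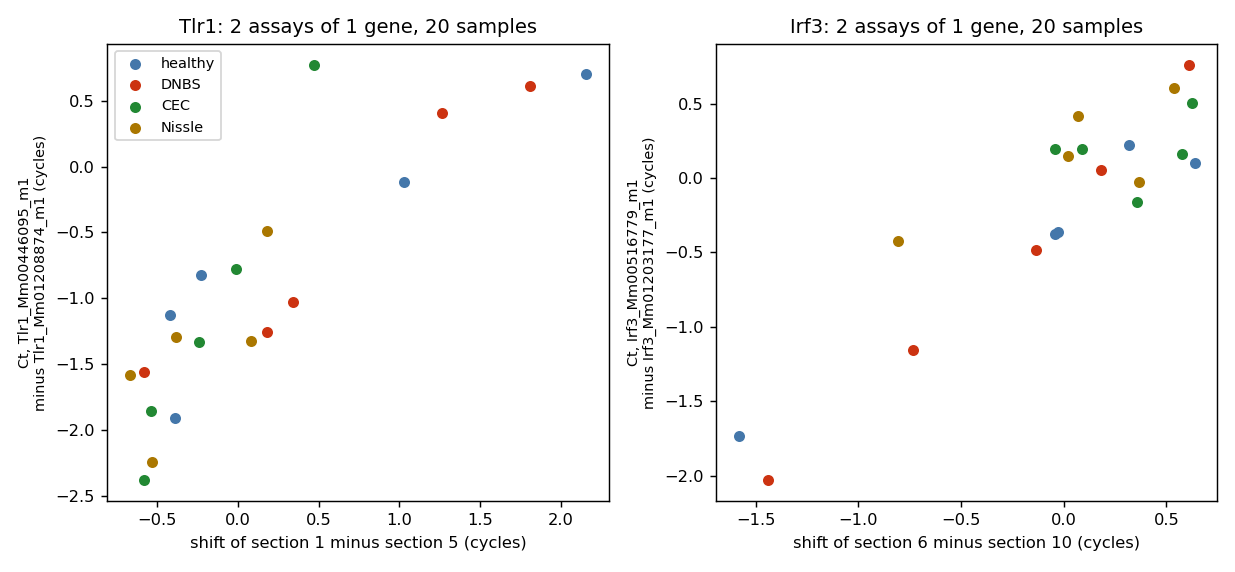
For Tlr1 (left) and Irf3 (right), the difference in raw Ct between the 2 assays of the gene (vertical axis, cycles) against the difference between the shifts of the table sections that hold them (horizontal axis, cycles), 1 point a sample, coloured by group. For Irf3 the lowest points are DNBS 5 at -2.03 and healthy 5 at -1.74 cycles, the samples with the lowest section differences.

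Of the adaptors, Tirap had the smallest p in the comparisons with the DNBS group. Its levels (Tirap_Mm00446502_m1) were -0.22, -0.10, -0.05, 0.25 and 0.14 in healthy controls, 0.36, 0.41, 0.36, 0.99 and 0.24 with DNBS, -0.12, 0.23, 0.20, -0.37 and 0.0 with CEC and 0.14, -0.46, 0.07, 0.07 and 0.17 with Nissle. All CEC and all Nissle samples lay below the lowest DNBS sample (at most 0.23 and 0.17 against 0.24), whereas healthy and DNBS samples overlapped through healthy 5. The differences were 0.47 (SE 0.22) for DNBS against healthy (adjusted p 0.33, limma), -0.49 (SE 0.22) for CEC against DNBS (adjusted p 0.455) and -0.48 (SE 0.22) for Nissle against DNBS (adjusted p 0.851). DNBS 4 is the highest of the 20 samples, and over samples left out in turn the DNBS difference from healthy ranged from 0.34 to 0.53. The Nissle difference from DNBS was -0.27 without normalization and -0.29 with reference genes. Myd88, the adaptor of most Toll-like receptors, had 0.03 (SE 0.26), 0.16 (SE 0.26) and -0.03 (SE 0.26) with DNBS, CEC and Nissle against healthy. Tollip, an inhibitor of this signal, had -0.48 (SE 0.46), 0.40 (SE 0.46) and 0.27 (SE 0.46), with healthy 5, DNBS 1 and DNBS 5 as its lowest samples at 0.45, 0.89 and 1.03.

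The 4 kinase assays were for Irak1, Irak2 and Irak4, which carry the signal from Myd88, and Irak3, which restrains it. With DNBS against healthy they had 0.30, -0.17, 0.0022 and -0.42 on the log2 scale, none at an unadjusted p under 0.05. Irak3 had the widest spread of the 4, with SDs of 1.23 in healthy controls and 1.40 with DNBS, and its levels in healthy 5, DNBS 1 and DNBS 5 were -4.98, -4.90 and -4.92. The NF-kB subunits were represented by Nfkb1, the precursor of p50, and Rela, p65. Nfkb1 had -0.24 (SE 0.45), 0.41 (SE 0.45) and 0.32 (SE 0.45) with DNBS, CEC and Nissle against healthy, and its lowest samples were healthy 5 at -0.18, DNBS 1 at 0.31 and DNBS 5 at 0.68. For Rela the differences were -0.31 (SE 0.24), -0.36 (SE 0.24) and -0.35 (SE 0.24). Rela in CEC against healthy, the fourth smallest p of that comparison (adjusted p 0.803, limma), was -0.23 without healthy 5 and -0.09 once sections were centred.

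Irf3, the factor that induces Ifnb1 downstream of Tlr3 and Tlr4, gave different values with its 2 assays. With Irf3_Mm00516779_m1 the levels were 2.41, 2.11, 2.39, 3.02 and 2.53 in healthy controls, 2.23, 1.34, 2.92, 2.62 and 3.18 with DNBS, 0.30, 1.72, 2.11, 1.68 and 2.52 with CEC and 1.71, 1.21, 1.42, 1.65 and 2.19 with Nissle. Nissle samples were mostly low, CEC 1 was the lowest of all, and the groups overlapped. The differences were -0.82 (SE 0.37) for CEC (adjusted p 0.803, limma) and -0.86 (SE 0.37) for Nissle against healthy (adjusted p 0.488), and -0.79 (SE 0.37) and -0.82 (SE 0.37) for the same groups against DNBS. Without CEC 1 the CEC differences were -0.48 from healthy and -0.45 from DNBS, and with sections centred the latter was -0.40. Array weights gave -0.29 for CEC against healthy, and the Nissle difference from healthy was -0.42 without normalization. The other assay, Irf3_Mm01203177_m1, gave -0.22 (SE 0.31), -0.28 (SE 0.31), -0.04 (SE 0.31) and -0.11 (SE 0.31) in the same comparisons. In raw cycles the 2 assays stood furthest apart in DNBS 5 (-2.03), healthy 5 (-1.74) and DNBS 3 (-1.16), where their sections (6 and 10) were shifted by -1.44, -1.58 and -0.73 cycles. Irf7, the amplifier of interferon alpha production, had -0.85 (SE 0.61) with DNBS, -0.62 (SE 0.61) with CEC and -0.73 (SE 0.61) with Nissle against healthy, and with DNBS it ranged from 0.97 to 4.76.

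With DNBS against healthy, the 5 largest differences of the 45 assays were those of the interferon ligands Ifnb1, Ifne, Ifna12, Ifna2 and Ifna4, and all 7 ligands were measured by single-exon assays. For Ifnb1, the interferon beta gene that cells induce first on sensing microbes (Ifnb1_Mm00439552_s1), the levels were -0.17, -1.5, -1.21, 0.08 and -0.80 in healthy controls, -1.81, -1.78, -2.72, -5.51 and -1.46 with DNBS, -0.23, -2.21, -1.5, -1.19 and -1.36 with CEC and -1.89, -2.57, -1.54, -1.63 and -1.31 with Nissle. DNBS 4 was far below all other samples, DNBS 1, 2, 3 and 4 lay below every healthy sample, and DNBS 5 lay just above the lowest of them. The difference of DNBS from healthy was -1.94 (SE 0.59), or 3.82-fold lower (adjusted p 0.122, limma), and -1.22 without DNBS 4. Against DNBS it was 1.36 (SE 0.59) with CEC (adjusted p 0.455), 0.64 without DNBS 4 and 2.04 without healthy 5, DNBS 1 and DNBS 5. Nissle against DNBS gave 0.87 (SE 0.59).

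Ifne, interferon epsilon, is known for constant rather than induced expression in epithelium, above all that of the female reproductive tract. Its levels were 0.005, -2.97, -2.09, -0.98 and -1.30 in healthy controls, -2.34, -1.92, -4.49, -5.24 and -2.41 with DNBS, -0.62, -1.81, -1.76, -0.57 and -1.97 with CEC and -2.34, -2.23, -1.54, -2.45 and -1.83 with Nissle. DNBS 3 and DNBS 4 were the lowest of the 20 samples, and healthy 3 lay below the other 3 DNBS samples, so the groups overlapped. The differences were -1.81 (SE 0.60) for DNBS against healthy (adjusted p 0.151, limma), 1.93 (SE 0.60) for CEC against DNBS (adjusted p 0.386) and 1.20 (SE 0.60) for Nissle against DNBS (adjusted p 0.851). The last was 0.71 without DNBS 4 and 1.80 without healthy 5, DNBS 1 and DNBS 5.

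Of the interferon alpha genes, whose products act through the same receptor as interferon beta, Ifna12 had the smallest p. Its levels were 0.12, -2.19, -1.89, -0.38 and -1.59 in healthy controls, -1.56, -1.89, -3.14, -4.24 and -2.81 with DNBS, -0.92, -2.45, -1.67, -1.74 and -1.46 with CEC and -2.78, -2.77, -1.95, -2.72 and -1.82 with Nissle. Healthy 1b and healthy 5 were high and DNBS 4 low, and 3 of 5 healthy samples lay within the DNBS range. The differences from healthy were -1.54 (SE 0.50) with DNBS (adjusted p 0.15, limma), -1.22 (SE 0.50) with Nissle (adjusted p 0.488) and -0.46 (SE 0.50) with CEC. The Nissle difference was -0.78 both without normalization and with array weights. Against DNBS the CEC difference was 1.08 (SE 0.50), and 0.70 without DNBS 4. For Ifna2, Ifna4 and Ifna14 the differences of DNBS from healthy were -1.17 (SE 0.67), -1.12 (SE 0.60) and -0.80 (SE 0.62), and those of CEC from DNBS 0.87 (SE 0.67), 0.66 (SE 0.60) and 0.28 (SE 0.62). Ifnk, interferon kappa, known from keratinocytes, had -0.24 (SE 0.39) and 0.15 (SE 0.39).

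**Figure D3:**
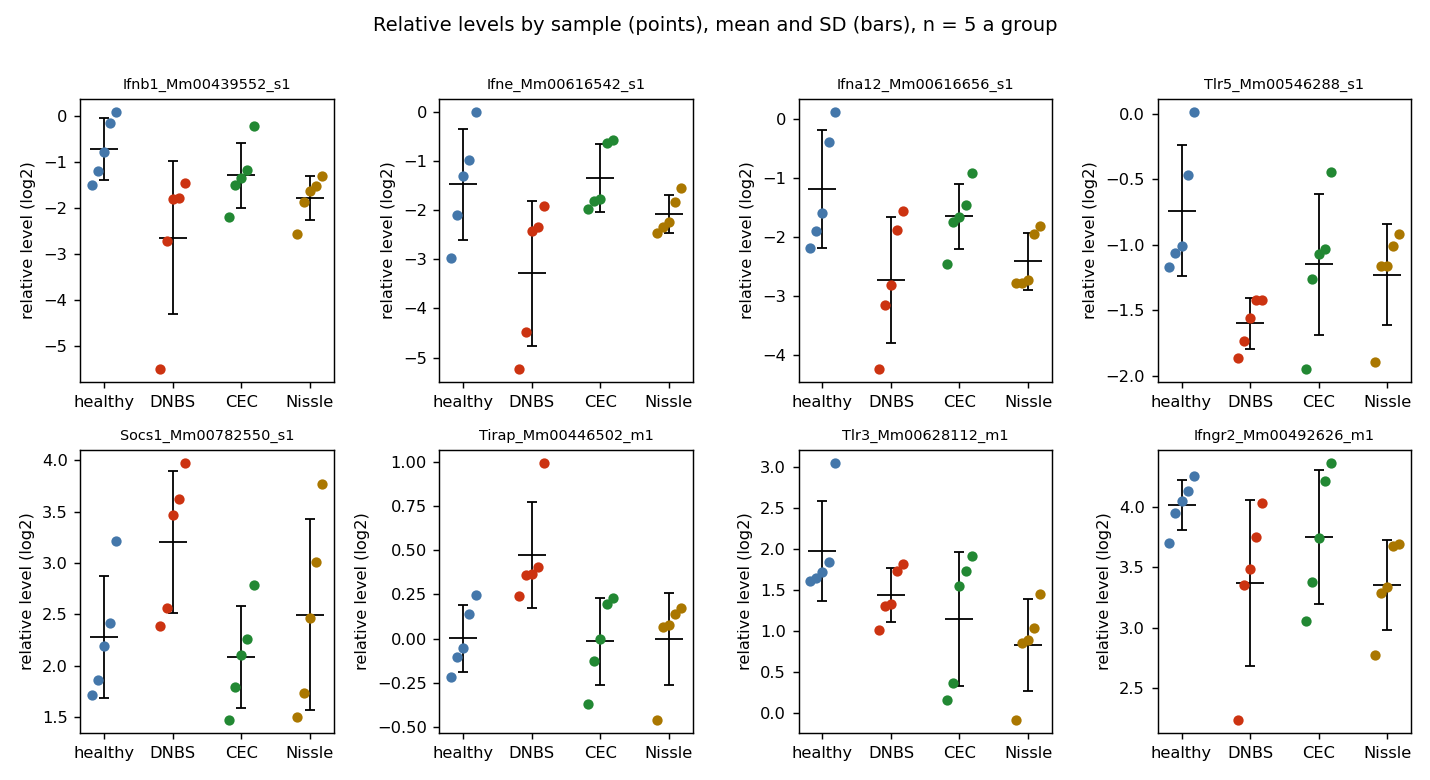
Relative level (vertical axes, log2) of 8 assays in every sample (points), with the mean and SD of each group of 5 (bars). All 5 DNBS points of Tlr5 lie below the healthy ones, all CEC and Nissle points of Tirap lie below the DNBS ones, and DNBS 4 is the lowest point of Ifnb1 at -5.51 and of Ifne at -5.24.

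Other single-exon assays were low in DNBS 3 and DNBS 4, the lowest DNBS samples of the interferon ligands, and did not follow the ligands in every DNBS sample. Relative to each assay's mean over the 20 samples, the median deviation of the 7 interferon ligands was -2.27 in DNBS 4 and -1.10 in DNBS 3, where the 40 single-exon assays outside the 45 had -0.86 and -0.58. DNBS 1, 2 and 5 had -0.19, -0.17 and 0.31 for the interferon ligands and -0.14, 0.22 and -0.43 for the outside single-exon assays, so that DNBS 2 and 5 had opposite signs. In healthy 1b, healthy 5 and CEC 1 the interferon ligands stood at 1.63, 1.61 and 1.06, and the outside single-exon assays at 0.82, 0.39 and 0.68. Outside the DNBS group, opposite signs were found in healthy 3, at -0.72 for the ligands and 0.09 for the others. The same held for healthy 4 (-0.05 and 0.35), CEC 3 (-0.57 and 0.07) and Nissle 5 (0.21 and -0.02). Of the ligands, Ifna4 and Ifnk lie in section 6 and Ifna2 and Ifna14 in section 12. These sections ran 0.72 and 1.32 cycles early in DNBS 5, and 0.50 and 0.84 cycles early in healthy 5. The deviations given here are not corrected for that. The 484 assays that are neither in the set nor single-exon stayed between -0.29 and 0.24 in all samples. By group, the single-exon members had a median difference of -0.80 with DNBS against healthy, beside -0.64 for the outside single-exon assays, -0.17 for the 32 exon-spanning members and -0.003 for the 484. With CEC against DNBS these medians were 0.45, 0.66, 0.02 and -0.06, and with Nissle against DNBS 0.32, 0.34, -0.09 and -0.08. The part of genomic DNA in these values was not tested.

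**Figure D4:**
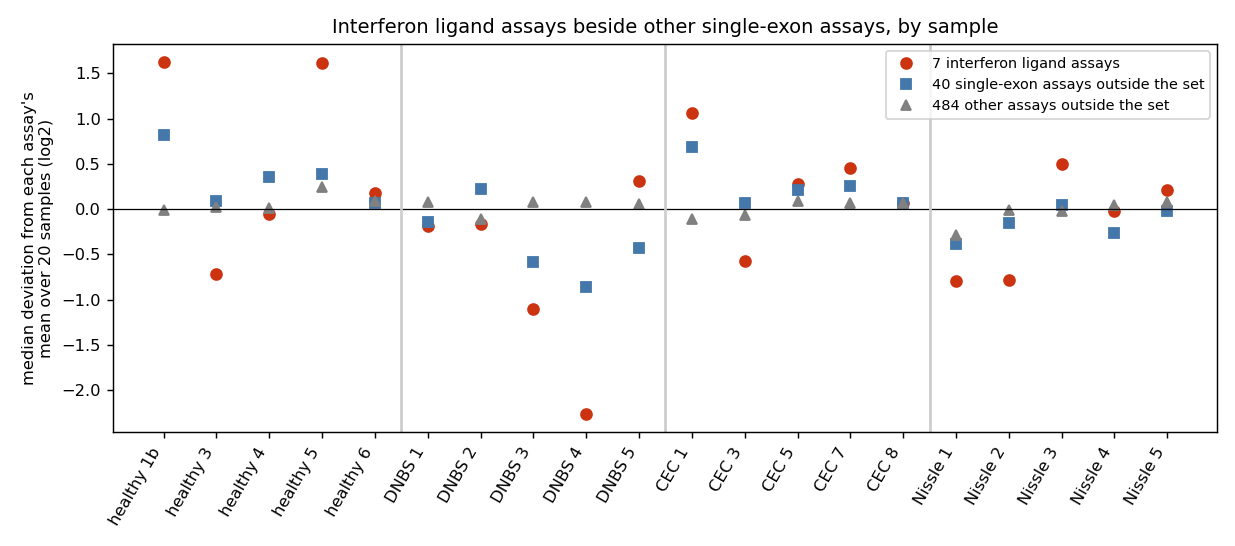
Median deviation from each assay's mean over 20 samples (vertical axis, log2) in every sample, for the 7 interferon ligand assays (circles), the 40 single-exon assays outside the set (squares) and the 484 other assays outside it (triangles). DNBS 4 is lowest for the circles at -2.27 and for the squares at -0.86, while the triangles stay between -0.29 and 0.24.

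The interferon ligand median was -1.17 for DNBS against healthy and lay between -1.56 and -0.88 under all 34 alternatives in which these assays were kept. For CEC against DNBS it was 0.87 and ranged from 0.51, with the sample number as a block, to 1.44 without healthy 5, DNBS 1 and DNBS 5. The Nissle median of 0.38 was less stable: it was -0.05 without the Nissle samples of contradictory label, 0.12 without DNBS 4, 0.20 without Nissle 3 and 1.21 with array weights. With CEC against healthy 6 of 7 ligands were lower (median -0.46), and with Nissle 7 of 7 were (median -0.61; 6 of 7 without normalization).

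Among the interferon receptors, Ifngr2, the signalling chain of the interferon gamma receptor, had levels of 3.71, 4.05, 3.95, 4.25 and 4.13 in healthy controls, 3.75, 2.24, 3.48, 3.35 and 4.04 with DNBS, 3.38, 3.06, 4.22, 4.36 and 3.74 with CEC and 2.78, 3.67, 3.29, 3.34 and 3.69 with Nissle. Every Nissle sample was under the healthy minimum, at most 3.69 against 3.71, and DNBS 2 was the lowest of the 20. The difference from healthy was -0.66 (SE 0.30) with Nissle (adjusted p 0.488, limma), -0.22 without normalization, and -0.65 (SE 0.30) with DNBS (adjusted p 0.331), -0.36 without DNBS 2. Its partner Ifngr1 had -0.49 (SE 0.47) with DNBS and 0.20 (SE 0.47) with Nissle, and its lowest samples were healthy 5 at 1.43, DNBS 1 at 1.72 and DNBS 5 at 2.03. The chains of the type I interferon receptor, Ifnar1 and Ifnar2, had -0.20 (SE 0.20) and 0.47 (SE 0.29) with DNBS. Ifnar1 was among the 4 members of smallest p for CEC against Nissle, at 0.27 (SE 0.20; adjusted p 0.998, limma), and -0.13 without normalization.

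In the Jak and Stat group no assay stood outside the range of another group in any comparison. Jak1 and Jak2, kinases of the interferon receptors, had -0.29 (SE 0.18) and -0.47 (SE 0.27) with DNBS against healthy, and Jak3, the kinase of interleukin receptors with the common gamma chain, 0.39 (SE 0.30). With CEC against DNBS Jak3 had -0.62 (SE 0.30; adjusted p 0.458, limma), -0.31 with sections centred.

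Stat3, the factor beneath the interleukin-6 and interleukin-10 receptors, had levels of 3.20, 3.13, 3.22, 3.33 and 3.36 in healthy controls and 2.34, 3.02, 2.18, 2.79 and 3.36 with Nissle. Healthy samples were tightly grouped, Nissle 1 to 4 lay below all of them, and Nissle 5 lay beside the highest. The difference was -0.51 (SE 0.23; adjusted p 0.488, limma), and -0.07 without normalization. CEC against Nissle gave 0.40 (SE 0.23), the smallest p of that comparison (adjusted p 0.998), 0.26 without Nissle 3 and 0.01 without normalization. For Jak1 in that comparison the difference was 0.28 (SE 0.18), and -0.12 without normalization. Stat4, Stat5b and Stat6, known from interleukin-12, growth hormone and interleukin-4 signalling, had -0.07, -0.13 and 0.06 with DNBS against healthy on the log2 scale.

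Socs1, an interferon-induced gene whose product shuts down Jak activity, was the member with the largest positive difference in the DNBS group. Its levels (Socs1_Mm00782550_s1) were 2.19, 1.72, 1.86, 3.22 and 2.41 in healthy controls, 3.47, 3.63, 2.38, 3.97 and 2.56 with DNBS, 1.79, 2.79, 2.26, 1.47 and 2.11 with CEC and 3.77, 1.5, 2.46, 3.01 and 1.73 with Nissle. DNBS 1, 2 and 4 were above all healthy samples, DNBS 3 and 5 within their range, and the Nissle samples spread over the ranges of all other groups. The difference of DNBS from healthy was 0.92 (SE 0.41; adjusted p 0.301, limma), and that of CEC from DNBS -1.12 (SE 0.41; adjusted p 0.386), -0.73 with sections centred. Its positive sign in the DNBS group was the only one among the 13 single-exon members, 12 of which were lower.

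Genes around the pathway were taken from lists of co-receptors and regulators and of typical target genes. Of 11 assays for co-receptors and regulators (Cd14, Lbp, Nod1, Nod2, Ripk2, Tnfaip3, Bcl10, Il10ra, Il10rb, Il6ra and Il6st), 0 were called in limma in any of the 6 comparisons (2 in all at an unadjusted p under 0.05), while with array weights 3 were called for DNBS against healthy and 1 for CEC against DNBS, where 101 and 47 of all 569 tested were. With DNBS against healthy 6 were higher and 5 lower (median 0.06), and the only one at an unadjusted p under 0.05 was Lbp, the carrier of lipopolysaccharide to Cd14, at 1.19 (SE 0.40) with an adjusted p of 0.158. Nod1, the sensor of peptidoglycan fragments, had -0.59 (SE 0.25) for CEC against DNBS (adjusted p 0.444, limma). The target genes comprised 22 assays of 16 genes, and again 0 were called in limma, against 6 for DNBS against healthy and 4 for CEC against DNBS with array weights (27.3% and 18.2% of the 22, beside 17.8% and 8.26% of all tested). With DNBS 15 were higher and 7 lower than in healthy controls (median 0.55), 7 of them at an unadjusted p under 0.05 (31.8%, beside 14.6% of all tested), among which the chemokine genes Cxcl2, at 4.78 (SE 1.27), and Ccl2, at 1.79 (SE 0.81), were higher and the Ccl5 assay Ccl5_Mm01302427_m1, at -1.07 (SE 0.51), lower. With CEC against DNBS 15 of 22 were lower (median -0.60; 3 at an unadjusted p under 0.05, 13.6% beside 10.7% of all tested), and with Nissle against DNBS 10 of 22 (median 0.04; 0). Cxcl9, a target of interferon gamma, had -1.13 (SE 0.43) with CEC against DNBS (adjusted p 0.386, limma). Target genes had a positive median with DNBS against healthy, where the median of the 45 assays was -0.24. The list also named Isg15, Mx1, Oas1a, Gbp2, Ifit1, Icam1 and Vcam1, which had no assay on the panel, and Tnf, which was not tested. With DNBS against healthy, Cxcl9, Cxcl10 and Cxcl11 had 0.13, -0.05 and 0.32. The 2 Il6 assays tested differed in sign, at 4.62 (SE 1.22) for Il6_Mm00446190_m1 and -4.06 (SE 3.75) for Il6_Mm01210733_m1. None of the 22 target assays is single-exon, and the exon-spanning members had a median of -0.17.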

How the data were processed

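RNA of ileal mucosa from 20 samples was isolated with the mirVana kit and measured with TaqMan assays on OpenArray plates, per the labels' protocols. The table the authors deposited holds raw Ct values, other values than an expression unit and not normalized per the file headers. A value of 40 stood for no amplification (9.82% of cells) and was left missing; 1 cell was empty. The sources used here do not say whether a value averages wells. Mean Ct per sample was 22.6 to 24.3 cycles over the 544 assays with a value in all samples, and replicates of a group differed by an SD of 0.607 to 1.97 cycles. Levels were compared in limma 3.58.1 (R 4.3.3): 4 group means over 20 samples, empirical Bayes with trend, two-sided, Benjamini-Hochberg over the 569 assays with at least 3 values in each group, threshold 0.05. The SE of a difference had a median of 0.42. The fit was tested on simulated data with independent normal noise in each assay and sample. The simulation held no section shifts and no deviations shared between assays, so it does not show how the fit behaves with these.

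The assays, lists and added alternatives were chosen with earlier results of these data known. Named with values are, in each comparison, the 4 members of smallest p and those without overlap, and in any comparison members with several assays and single-exon members; other values cover the remaining members by role. Counts cover all 45 members, of which 1 is not reported here. Cd14 stands in the list of co-receptors and in that of macrophage markers. Alternatives were other scalings, filters, weights, fits and samples left out; sections centred and the 3 samples of widest shifts left out were added after the data were seen. Titles number the samples, without saying what a number marks. DNBS and healthy have 3 numbers in common, and deviations of samples with the same number correlated at 0.18, 0.14 and 0.49, where number 4 did not correlate best with its own. In the other 5 comparisons these correlations ran from -0.40, in Nissle against healthy, to 0.44, in CEC against Nissle. In all of them but Nissle against healthy, some number correlated best with its own. The 0.49 for DNBS and healthy is that of number 5, whose samples are both among the 3 of widest shifts. Whether a number marks a pair cannot be told from these correlations.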

Additional observations from a re-analysis of the deposited data

Results flagged for a closer look

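Of 60 groups of 5 samples tested, over the 15 assays named by rank or separation, 7 held a sample whose gap to its nearest neighbour was large against the range of its group (Dixon's critical value 0.71). The nominal rate of about 1 in 20 is for independent groups not picked by their values. These groups share the same 20 samples and come from assays picked in these data, so that rate does not apply to the 7. In healthy 5, a sample of shifted sections, the Tlr3 level was 3.05 with the next at 1.84, and the Jak1 level was 2.40 with the next at 2.85. The level of the assay shared by Tlr1 and Tlr6 in DNBS 5, another of these samples, was 3.04 with the next at 2.25. Tirap was 0.99 in DNBS 4 (next 0.41) and -0.46 in Nissle 2 (next 0.07). Jak1 in CEC 3 was 2.31 (next 2.73), and Tlr5 in Nissle 1 was -1.89 (next -1.16). These values are given without explanation.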

How the results depend on the processing

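The number of members called was 0 in all 6 comparisons under each of the 35 alternatives except array weights, with which 6 were called for DNBS against healthy and 2 for CEC against DNBS (of all 569 tested, 101 and 47 were called in that fit); leaving out each sample in turn gave 0 throughout. Of 34 named differences, 7 passed the threshold with array weights and 2 turned sign, both in CEC against Nissle without normalization: Ifnar1 at -0.13 and Jak1 at -0.12. Dropping normalization moved the median of all tested assays by 0.43 for Nissle against healthy and by -0.40 for CEC against Nissle. Unadjusted counts moved more: for DNBS against healthy, 7 members became 20 with array weights, 14 without healthy 5, and 4 without DNBS 4 or healthy 4. Leaving out single-exon assays gave 1 of the 32 other members, where the main fit had 2 of these 32. Shares of all tested assays were not computed for the alternative counts. Over all alternatives the counts ranged from 0 to 3 for CEC and 0 to 7 for Nissle against healthy, 2 to 13 for CEC and 0 to 8 for Nissle against DNBS, and 0 to 6 for CEC against Nissle. Of single samples, for CEC against healthy 3 became 0 without CEC 1 and 1 without CEC 3, healthy 5 or healthy 6. For Nissle against healthy 5 became 2 without Nissle 3 or healthy 5 and 3 without Nissle 1, healthy 1b or healthy 6. For Nissle against DNBS 3 became 0 without Nissle 2, 1 without DNBS 4, Nissle 3 or Nissle 4 and 6 without DNBS 2. For CEC against Nissle 0 became 1 without CEC 1 or Nissle 5. With the sample number as a replicate block 0 members were called in each comparison, as without it, and the unadjusted count for DNBS against healthy was 3. With 5 samples a group, a difference had a median SE of 0.42.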
